A study of Rattus norvegicus with 35 samples.

Results

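Of the 1766 probe names on Exiqon miRCURY LNA arrays, 3 were described here in every animal. They were taken by name and by no threshold on their values, though with earlier results of these data known. They were hsa-miR-1246, hsa-miR-720/mmu-miR-720 and hsa-miR-1826, below miR-1246, miR-720 and miR-1826. Each was once listed as a microRNA and is now seen as a fragment of a longer non-coding RNA, U2 snRNA for miR-1246, a tRNA for miR-720 and 5.8S rRNA for miR-1826. All 3 were detected in the study and entered the tests, as did 719 of the 816 detected names. Total RNA from a 1 cm fragment of spinal cord at the level of T8 was hybridized from 35 adult female Wistar rats, 1 animal per array and 5 animals in each of 7 groups. The LS1, LS3 and LS7 animals received a laminectomy and a contusion of 200 kdyne and were sampled 1, 3 or 7 days postoperation (dpo). The SH1, SH3 and SH7 animals received the laminectomy alone and were sampled on the same days, and the CT animals had no surgery. A fragment holds the lesion, the tissue next to it and every cell type of the cord, so its RNA is a mixture.

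U2 snRNA is a nuclear RNA of the spliceosome, where it pairs with the branch point of introns. A tRNA carries an amino acid to the ribosome, and cells under stress cut tRNAs into stable fragments, for example by the ribonuclease angiogenin. 5.8S rRNA is part of the large ribosomal subunit and is cut from the same precursor as 18S and 28S rRNA. Short pieces of such abundant RNAs are labelled together with microRNAs when total RNA is used, and several were first named as microRNAs from sequencing. A probe of an array does not tell a short fragment from the whole parent RNA or from the break-down products of that RNA.

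The names are human, or human and mouse, while the RNA was from the rat, so each signal is a match across species. In the RefSeq annotation of the rat assembly GRCr8, U2 snRNA had 3 genes and 10 pseudogenes. Threonine tRNAs, the tRNAs to which miR-720 is usually assigned, had 44 genes on 18 chromosomes. For 5.8S rRNA the annotation lists the gene Rn5-8s, on chromosome 11 from 237779 to 237934, which is 156 bases long. Many copies of an RNA could thus give signal to a single probe, and the probes were not placed on any of these genes.

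Arrays were described before the probes were compared. The values below are normalised green signals on a log2 scale after variance stabilization (VSN). The median signal of the detected names exceeded the SD of the negative control spots by 6.57 to 24.4 times. It was lowest in LS7, at 6.57 to 12.9 in LS7 animals and 14.5 to 20.4 in SH7 animals, and LS7 arrays detected a median of 376 names (270 to 922), against 589 (567 to 771) in SH7. Their scanner gain was 600 to 720 in LS7 and 550 to 610 in SH7. The profile of SH1 replicate 4 followed the mean of LS1 (r = 0.87 over the names tested) and not that of the other SH1 animals (r = −0.16). LS3 replicate 2 followed LS7 (r = 0.71) and not its own group (r = −0.18). The scanner files of LS7 replicate 4 and SH7 replicate 1 differed from the deposited values of the same arrays. MicroRNAs typical of neurons (miR-124, miR-9), oligodendrocytes (miR-219-5p, miR-338-3p), myeloid cells (miR-223, miR-142-3p), erythrocytes (miR-451, miR-144) and skeletal muscle (miR-206, miR-1) were detected on 31 to 35 of the 35 arrays.

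The probe of the U2 snRNA fragment, miR-1246, was higher in LS1 animals than in any other group but for a single sham animal. By 7 dpo it was lowest in the injured animals. The normalised signals of replicates 1 to 5 were 9.95, 10.31, 10.08, 10.07 and 10.39 in LS1. They were 7.69, 8.43, 7.15, 9.99 and 7.75 in SH1, and 7.26, 7.64, 6.47, 7.37 and 8.03 in CT. The 5 LS1 animals lay within a narrow band above all CT animals and above 4 of the 5 SH1 animals, and SH1 replicate 4 lay inside the LS1 band. Before normalisation the signal over the local background was 1169 to 1627 in LS1 animals, 161 to 2400 in SH1 and 68 to 304 in CT.

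On day 1 miR-1246 averaged 10.16 ± 0.18 in LS1 and 7.35 ± 0.58 in CT (SD, n = 5 each). The difference of 2.81 (SE 0.29), or 6.99-fold, had an adjusted p of 2.08e-05 in limma. It was called where 7.51% of the names tested were called in this comparison, and where 6.4% were higher without overlap. The median of all names tested differed by 0.13, so miR-1246 lay 2.68 above it, and 98.9% of the names had a smaller difference. The call held under all 18 other settings and all 10 omissions of an animal, with differences of 1.95 to 3.76 that all lay above the median of all names. The arrays of 1 LS1 and 1 CT animal were scanned on the same day, and there the difference was 2.82. MicroRNAs of myeloid cells were also higher in LS1 than in CT, miR-223 by 2.40 (adjusted p = 0.000246) and miR-142-3p by 1.31 (adjusted p = 0.0311). The summed level of this pair (log2) ranged from 11.01 to 12.3 in LS1 and from 9.19 to 10.6 in CT. Their part in the result was not tested. In RNA of whole tissue, a change in the number of cells of a type and a change in the RNA of each cell cannot be told apart.

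Against the sham animals of the same day the difference of miR-1246 did not pass the test. LS1 and SH1 averaged 10.16 ± 0.18 and 8.20 ± 1.10 (SD, n = 5 each), which is a difference of 1.96 (SE 0.44, adjusted p = 0.0687). Of the 3 probes 0 were called by limma in this comparison, as were 0 (0%) of the 719 names, although 71 had an unadjusted p below 0.05 and 1.67% were higher in LS1 without overlap. The difference lay 1.81 above the median of all names, and 99.4% of the names had a smaller one. Without SH1 replicate 4, which followed the LS1 profile, the difference was 2.40 and was called by limma (adjusted p = 0.000336). That animal was singled out after seeing the data and had the highest miR-1246 signal of SH1. Leaving it out had to raise the difference, so this call is no further evidence. No day of scanning held both groups.

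**Figure D1:**
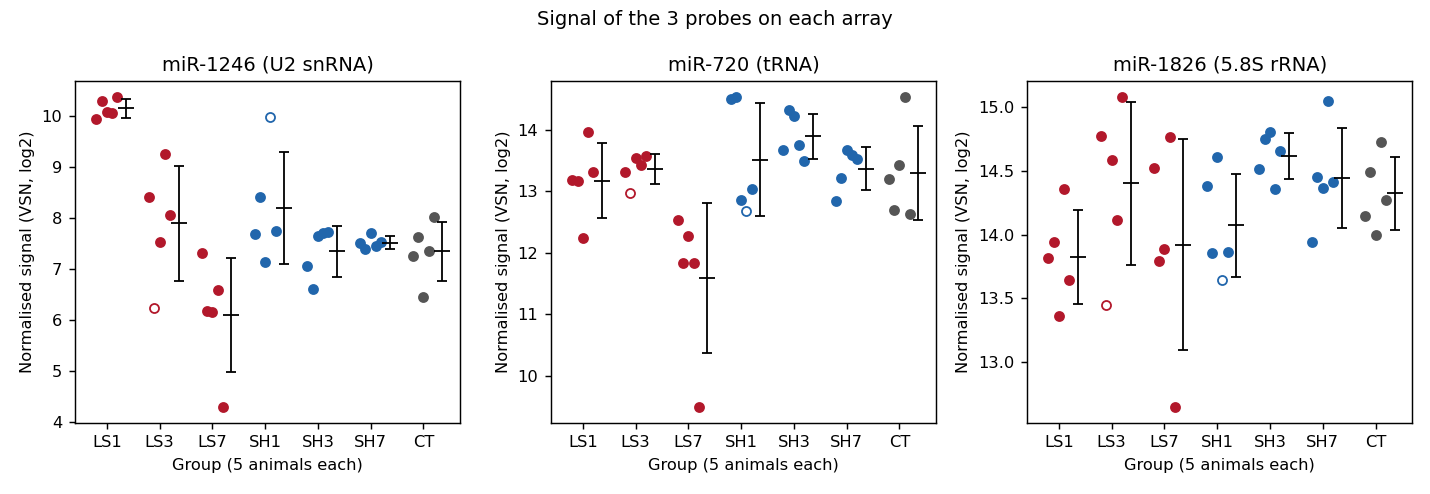
Normalised signal (VSN, log2) of miR-1246, miR-720 and miR-1826 on each of the 35 arrays, with the group on the horizontal axis (LS contused, SH laminectomy alone, CT no surgery, 1, 3 or 7 dpo). Points are animals, bars are the mean and SD of 5, and open points are SH1 replicate 4 and LS3 replicate 2, which followed the profile of another group. All LS1 values of miR-1246 (9.95 to 10.39) lie above the CT values, and LS7 replicate 5 is lowest for all 3 probes.

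On day 3 the miR-1246 signals of replicates 1 to 5 were 8.42, 6.24, 7.53, 9.26 and 8.07 in LS3 and 7.06, 6.61, 7.66, 7.71 and 7.74 in SH3. The LS3 animals were spread widely, both above and below the range of SH3 and CT. LS3 exceeded SH3 by 0.55 (SE 0.48, adjusted p = 0.627) and CT by 0.55 (SE 0.48, adjusted p = 0.667), so neither comparison passed the test. In the comparison with SH3, 5.15% of the names were called (4.87% as lower), and in that with CT 0.278%. The lowest animal, LS3 replicate 2, was the one whose profile followed LS7.

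On day 7 the signals of miR-1246 were 7.32, 6.17, 6.16, 6.60 and 4.30 in LS7, against 7.52, 7.40, 7.72, 7.45 and 7.53 in SH7. All LS7 animals lay below all SH7 animals, but the LS7 and CT ranges overlapped. The probe was not detected in LS7 replicates 2 and 5, so its level was measured in 3 of the 5 LS7 animals, and all 7 of its 140 spots that did not exceed the limit of detection were in LS7. LS7 averaged 6.11 ± 1.12 and SH7 7.53 ± 0.12 (SD, n = 5 each), a difference of −1.42 (SE 0.44, adjusted p = 0.0105), and against CT it was −1.24 (SE 0.48, adjusted p = 0.0406).

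Most names were lower in LS7 under this normalisation, which bears on every value of day 7. In LS7 against SH7, 63.4% of the names were called, 5.01% as higher and 58.4% as lower, and 36.6% were lower without overlap. Against CT 53.5% were called, 2.64% as higher and 50.9% as lower. Under other scalings this split moved: 7.89% of the names called between LS7 and SH7 were higher here, against 18.2% with the deposited values, 23.8% with normexp and quantile normalisation, 30.5% when scaled to the 75th percentile of all names, 33.8% as a ratio to the red channel, 43.4% with spike-in scaling and 97.6% when scaled to the names detected on all arrays. The median of all names differed by −1.11 between LS7 and SH7 and by −0.99 between LS7 and CT, and for LS7 and SH7 it lay between −1.12 and 1.23 in the other scalings. Relative to these medians miR-1246 differed by −0.31 and −0.25, and 38.8% and 40.3% of the names had a lower difference, so it lay near the middle of the names tested. Its direction depended on the scaling. LS7 minus SH7 was −0.75, called as lower, when scaled to the 75th percentile of all names. Scaled to that of the names detected on all arrays it was 0.90 and called as higher. As a ratio to the red channel it was 0.11 and not called. The call as lower held in 14 of 19 other settings.

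Among the contused animals miR-1246 was lower at each later day than on day 1. LS3 differed from LS1 by −2.26 (SE 0.46, adjusted p = 0.0156), in a comparison in which 3.89% of the names were called and the median of all names was −0.52. For miR-1246, LS3 minus LS1, the call was lost in 2 of 17 other settings and without LS1 replicate 5 (−2.20, adjusted p = 0.0641) or LS3 replicate 3 (−2.16, adjusted p = 0.0686). LS7 differed from LS1 by −4.05 (SE 0.46, adjusted p = 2.34e-05), where 66.8% were called (5.29% as higher, 61.5% as lower) and the median was −1.25. That call held in 18 of 19 other settings and was lost with scan day as a block (−2.76), where 1 day held both groups. In both comparisons the later animals all lay below the LS1 animals, as they did for 7.93% of the names tested in LS3 and 33.9% in LS7. Relative to the medians the differences were −1.73 and −2.80, and 0.139% of the names, which is 1 name, had a lower value than miR-1246 between LS7 and LS1. LS7 differed from LS3 by −1.79 (SE 0.60, adjusted p = 0.115), which did not pass the test.

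The effect of contusion against laminectomy alone was compared between days in a model of all 7 groups. For miR-1246 it differed between day 7 and day 1 by −3.37 (SE 0.67, adjusted p = 0.000447), which was called in 15 of 17 other settings and in all 20 omissions of an animal. Between day 3 and day 1 it differed by −1.41 (adjusted p = 0.411), and between day 7 and day 3 by −1.96 (adjusted p = 0.0664). In the first of these, 59% of the names were called, in the second 0% and in the third 3.34%.

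**Figure D2:**
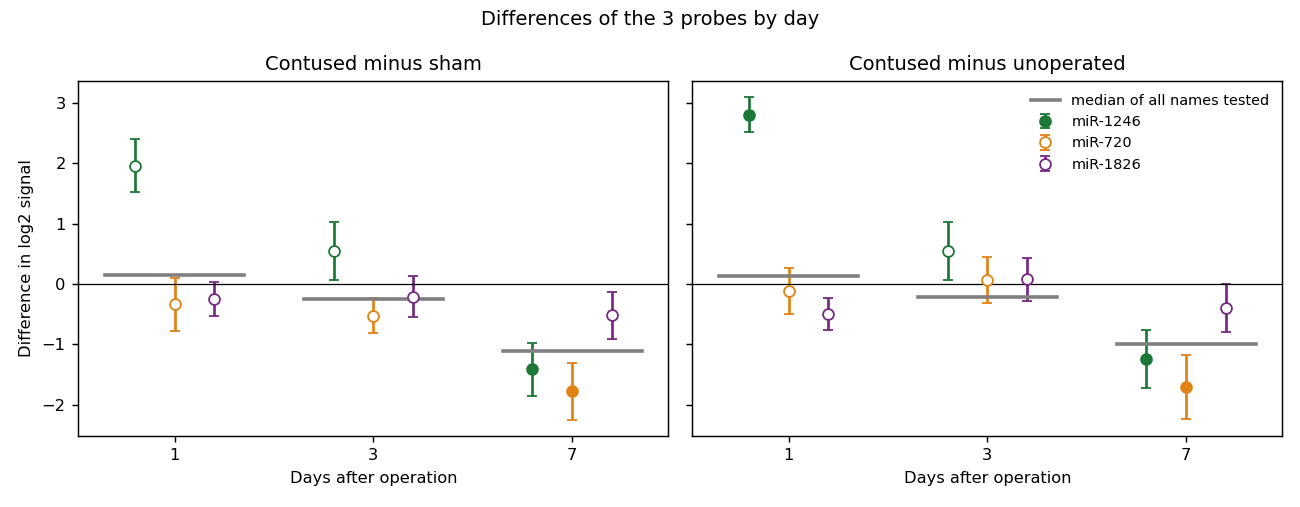
Difference in log2 signal of contused animals from sham animals (left) and from unoperated animals (right) by day, for the 3 probes. Points are limma estimates with their SE from 5 animals a group, filled points have an adjusted p below 0.05, and grey lines are the median of all 719 names tested. On day 1 miR-1246 stands 1.81 and 2.68 above the grey line, and on day 7 the line itself lies at −1.11 and −0.99.

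The tRNA probe, miR-720, was called in no comparison of contused with sham or unoperated animals on days 1 and 3, and was lower in the contused animals on day 7. The signals of replicates 1 to 5 were 12.53, 11.84, 12.27, 11.83 and 9.49 in LS7, against 12.84, 13.22, 13.68, 13.59 and 13.53 in SH7. In CT animals they were 13.20, 12.70, 13.43, 14.54 and 12.63. Every LS7 animal lay below every SH7 and CT animal, and LS7 replicate 5 lay far below the other LS7 animals.

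LS7 averaged 11.59 ± 1.21 and SH7 13.37 ± 0.34 (SD, n = 5 each), a difference of −1.78 (SE 0.47, adjusted p = 0.00405). CT averaged 13.30 ± 0.77, and LS7 differed from it by −1.71 (SE 0.53, adjusted p = 0.0149), where 24.6% of the names were lower without overlap. Relative to the median of all names the differences were −0.67 and −0.71, and 23.6% and 20.03% of the names had a lower value. Both differences were negative in all 19 other settings, and they were called in 17 of 19 against SH7 and in 16 of 19 against CT. With scaling to the names detected on all arrays the difference from SH7 was −0.07, and with normexp and quantile normalisation it was −0.14, and neither was called. Leaving out LS7 replicate 5 gave −1.25 against SH7 and −1.18 against CT, both called. On the 1 day of scanning that held both LS7 and SH7 the difference was −4.19, from LS7 replicate 5 and 1 SH7 animal, and on the 3 days that held LS7 and CT it was −3.94 to −0.67. Neuronal miR-124 (−2.62, adjusted p = 0.000194), oligodendrocyte miR-219-5p (−2.70, adjusted p = 0.000423) and erythrocyte miR-144 (−3.23, adjusted p = 0.000774) were lower in LS7 than in SH7 animals as well. Myeloid miR-223 (0.41, adjusted p = 0.433) and miR-142-3p (−0.53, adjusted p = 0.300) were not called by limma. The summed level (log2) of the neuronal pair ranged from 11.1 to 13.4 in LS7 and from 14.2 to 15.2 in SH7, and that of the oligodendrocyte pair from 9.84 to 12.4 in LS7 and from 13.1 to 14.1 in SH7. The part of these cells and of the array measures in the result was not tested.

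On day 1 miR-720 had signals of 13.19, 13.16, 12.25, 13.97 and 13.31 in LS1 and of 14.50, 14.53, 12.85, 12.68 and 13.03 in SH1. The highest were SH1 replicates 1 and 2, and the groups overlapped. All 4 spots of SH1 replicate 1 were saturated, so its value is a lower bound. Some arrays had red miR-720 signals over background of 22430 to 31539, against 2722 to 7964.5 on the rest. They were CT replicate 4, LS1 replicate 4, SH1 replicates 1 and 2, LS3 replicate 2, SH3 replicate 2 and LS7 replicate 3. Those of CT, SH1 and SH3 had the 4 highest green miR-720 signals, while those of LS3 (12.98) and LS7 (12.27) were lower. Their part in the miR-720 values was not tested. The difference was −0.34 (SE 0.43, adjusted p = 0.786) from SH1 and −0.12 (SE 0.38, adjusted p = 0.86) from CT. On day 3 the signals were 13.32, 12.98, 13.55, 13.43 and 13.57 in LS3 and 13.67, 14.32, 14.23, 13.75 and 13.50 in SH3. All but 1 of the SH3 animals lay above all LS3 animals. LS3 differed from SH3 by −0.52 (SE 0.30, adjusted p = 0.348) and from CT by 0.07 (SE 0.38, adjusted p = 0.955), and neither passed the test.

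Among the contused animals the miR-720 signal of LS7 differed from that of LS1 by −1.58 (SE 0.51, adjusted p = 0.0123), which is −0.34 relative to the median of all names. The call was lost in 7 of 19 other settings, and on the 1 day of scanning that held both groups the difference was 0.28. LS7 lay below LS3 without overlap, as it did for 3.06% of the names tested. The difference of −1.78 (SE 0.51, adjusted p = 0.108) did not pass the test, in a comparison where 0.834% of the names were called. The effect of contusion differed between day 7 and day 1 by −1.44 (SE 0.61, adjusted p = 0.0436), and it did not pass the test between the other days. Scaling to the names detected on all arrays (0.34) and normexp with quantile normalisation (0.13) turned the sign of that difference. It was called in 9 of 17 other settings and 9 of 20 omissions of an animal. The call was lost without LS1 replicate 1, 2, 4 or 5, SH1 replicate 3, 4 or 5, LS7 replicate 5 or SH7 replicate 3, 4 or 5, with values of −1.44 to −0.91.

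The 5.8S rRNA probe, miR-1826, was not called in any of the 15 comparisons between groups. Replicates 1 to 5 had signals of 13.81, 13.94, 13.37, 14.35 and 13.65 in LS1, 14.77, 13.45, 14.58, 14.11 and 15.08 in LS3, and 14.52, 13.79, 13.88, 14.76 and 12.65 in LS7. The sham animals had 14.38, 13.85, 14.61, 13.64 and 13.87 in SH1, 14.51, 14.74, 14.80, 14.35 and 14.65 in SH3, and 13.94, 14.45, 14.36, 15.04 and 14.41 in SH7. The signals of CT animals were 14.15, 14.49, 14.00, 14.72 and 14.27. The ranges of all 7 groups overlapped, the LS7 group had the widest spread, and its replicate 5 was again the lowest of all arrays.

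The differences of miR-1826 from the sham animals were −0.25 (SE 0.28, adjusted p = 0.755) on day 1, −0.21 (SE 0.34, adjusted p = 0.806) on day 3 and −0.52 (SE 0.39, adjusted p = 0.254) on day 7. From CT they were −0.50 (SE 0.26, adjusted p = 0.268), 0.08 (SE 0.36, adjusted p = 0.944) and −0.40 (SE 0.39, adjusted p = 0.405). A difference that misses the threshold does not show that the levels were alike. Relative to the medians of all names, which were lower in LS7, the day 7 differences were 0.59 against SH7 and 0.59 against CT, and 67.6% and 67.7% of the names had a lower value. The sign of the day 7 difference depended on the scaling, since LS7 minus SH7 was called as higher with scaling to the names detected on all arrays (1.16), with normexp and quantile normalisation (0.59) and as a ratio to the red channel (1.54).

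Ordered by group mean, miR-1246 ran from LS1 through SH1, LS3, SH7, SH3 and CT down to LS7. Between neighbours in this order only the steps from LS1 to SH1 and from CT to LS7 exceeded the larger SD of the pair. The order of miR-720 was SH3, SH1, SH7, LS3, CT, LS1 and LS7, and only the step from LS1 to LS7 exceeded the larger SD. That of miR-1826 was SH3, SH7, LS3, CT, SH1, LS7 and LS1, with no step beyond it. The ranges of all neighbours overlapped. The laminectomy alone gave no call: in the 6 comparisons among sham and unoperated groups, the 3 probes differed by −0.85 to 0.85, with 0 of 18 differences called by limma and 0 with an unadjusted p below 0.05, where 0% of the names were called in each. Under all 20 other settings and every omission of an animal this count was also 0.

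The probes were also set against each other within each array, which leaves a difference nearly free of a factor common to the whole array. Its change between groups still moved with the normalisation. In LS7 against SH7 it ran, over the other settings, from 0.74 to 2.44 for miR-1826 minus miR-720. For miR-1246 minus miR-720 it ran from −0.24 to 1.01. Only how that difference changes between groups can be read, since probes bind with unequal strength and their levels cannot be compared. In 45 such comparisons by a 2-sided exact permutation test over 252 splits, where the smallest p that 5 animals against 5 allow is 0.00794, 15 had an unadjusted p below 0.05 and 9 passed after adjustment, each with p = 0.00794 and an adjusted p of 0.0397. All 9 involved LS1 or LS7 animals.

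On day 1 miR-1246 changed against both other probes. Its difference from miR-1826 was −4.28 to −3.26 in LS1 and −7.53 to −6.24 in CT, with means of −3.67 ± 0.43 and −6.97 ± 0.50 (SD, n = 5 each). The change of 3.30 was seen in 5 of 5 LS1 animals, and that against miR-720 was 2.93, with −3.90 to −2.17 in LS1 and −7.17 to −4.61 in CT (exact permutation test, adjusted p = 0.0397 for both). Each call was lost when any 1 of the LS1 animals was left out (adjusted p of 0.0595 to 0.0649, exact permutation test) and with normexp and quantile normalisation (2.31 with miR-1826 and 1.85 with miR-720), and it held in 5 of 10 omissions and 8 of 9 other settings. Against SH1 the changes were 2.20 with miR-1826 (adjusted p = 0.0824, exact permutation test) and 2.30 with miR-720 (adjusted p = 0.119, exact permutation test). Without SH1 replicate 4 they were 2.76 and 2.96, and both passed (adjusted p = 0.0325, exact permutation test). This omission was chosen after seeing the data and took out the SH1 animal with the highest differences, which had to raise both changes. Against LS1, the differences of the later days changed by −2.83 in LS3 and −4.15 in LS7 with miR-1826, and by −2.45 in LS3 and −2.47 in LS7 with miR-720, and these 4 passed.

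On day 7 it was miR-720 and miR-1826 that moved apart. The difference of miR-1826 from miR-720 was 1.61 to 3.16 in LS7 and 0.68 to 1.45 in SH7, with means of 2.33 ± 0.67 and 1.07 ± 0.30 (SD, n = 5 each). All LS7 animals lay above all SH7 animals, and the change of 1.26 passed the test (exact permutation test, adjusted p = 0.0397). The changes of LS7 against LS3 (1.30) and against LS1 (1.68) passed as well. Against CT the change was 1.31 and did not pass (adjusted p = 0.0824, exact permutation test), since the CT animals ran up to 1.79. In LS7 against SH7, miR-1246 changed by 0.36 from miR-720 (adjusted p = 0.298, exact permutation test) and by −0.90 from miR-1826 (adjusted p = 0.0649, exact permutation test).

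**Figure D3:**
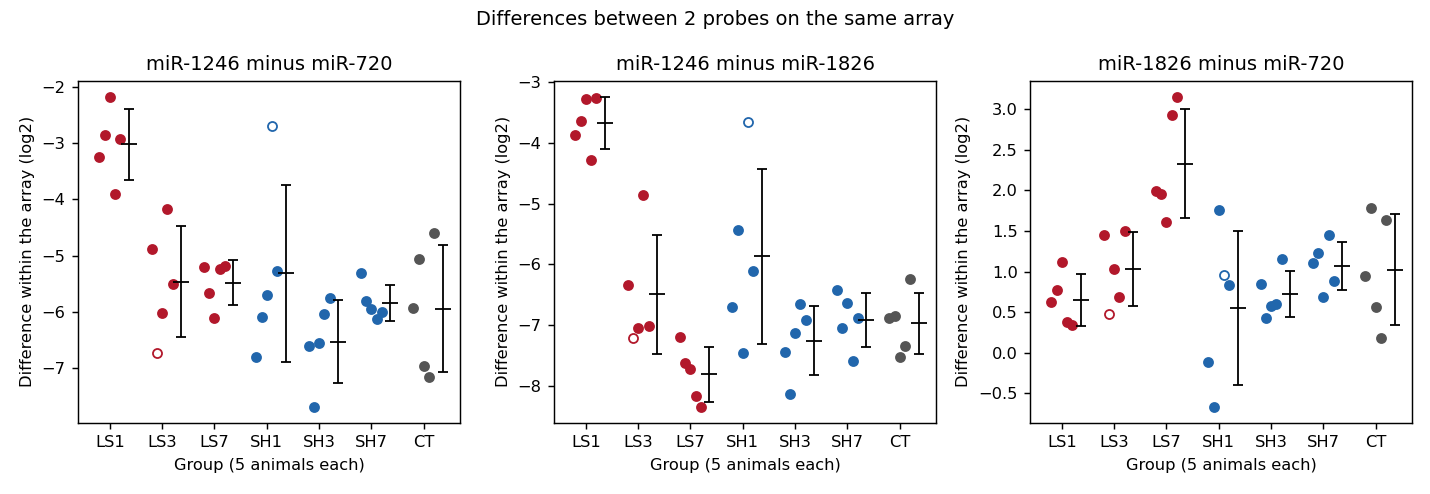
Difference in log2 signal between 2 of the 3 probes on the same array, for each of 35 animals by group. Points are animals, bars are the mean and SD of 5, and open points are SH1 replicate 4 and LS3 replicate 2. Only changes between groups are comparable. In the first and second panels the LS1 animals lie above all others but SH1 replicate 4, which lies inside their range. In the third panel miR-1826 minus miR-720 is 1.61 to 3.16 in LS7 and 0.68 to 1.45 in SH7.

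Other probes of tRNA on the array were set beside miR-720. The names miR-1274a and miR-1274b match the 3′ end of a lysine tRNA, miR-1280 a leucine tRNA and miR-1308 the 5′ end of a glycine tRNA. LS7 was lower than SH7 for miR-1280 (−2.92, SE 0.59, adjusted p = 0.000904), miR-1274a (−2.41, SE 0.44, adjusted p = 0.000581) and miR-1274b (−2.13, SE 0.42, adjusted p = 0.000775). miR-1280 averaged 10.35 ± 1.66 in LS7 and 13.27 ± 0.38 in SH7 (SD, n = 5 each), and it was called as lower in all 19 other settings, with differences of −4.81 to −0.99. The call of miR-1274a held in 18 of 19 settings. For miR-1274b it did so in 18 of 19, and with scaling to the names detected on all arrays its difference was 0.19. The fourth name, miR-1308, differed by −0.31 (SE 0.32, adjusted p = 0.405), which did not pass. It was called as higher with scaling to the names detected on all arrays (1.38), with normexp and quantile normalisation (1.29) and as a ratio to the red channel (0.94). Of all names 58.4% were called as lower, and their median was −1.11. Relative to it miR-1280, miR-1274a, miR-1274b and miR-1308 differed by −1.82, −1.30, −1.02 and 0.80. On day 1, LS1 minus CT was −0.66 to −0.04 for these 4 names, and none was called.

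miR-923, a fragment of 28S rRNA, and the probe 5SrRNA-5 of 5S rRNA were set beside miR-1826. LS7 minus SH7 was −0.89 (SE 0.42, adjusted p = 0.0723) for miR-923 and −1.37 (SE 0.47, adjusted p = 0.0171) for 5SrRNA-5. LS1 exceeded SH1 in miR-923 by 1.30 (adjusted p = 0.138), and LS1 minus CT was 0.72 (SE 0.50, adjusted p = 0.405) for miR-923 and −0.42 (SE 0.28, adjusted p = 0.39) for 5SrRNA-5. None of these but 5SrRNA-5 on day 7 passed the test, and its sign changed with normexp and quantile normalisation (0.33) and with scaling to the names detected on all arrays (0.36). With the same 2 scalings LS7 minus SH7 of miR-923 was 0.86 and 0.86, both called as higher. Relative to the median of all names, −1.11, 5SrRNA-5 differed by −0.26 and miR-923 by 0.22.

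Beside miR-1246 stood the probes of U6 snRNA, another RNA of the spliceosome, and of U3 snoRNA (SNORD3@), which acts in the processing of rRNA. LS1 minus CT was 1.84 (SE 0.54, adjusted p = 0.0526) for U6-snRNA-1, 0.47 (SE 0.33, adjusted p = 0.427) for U6-snRNA-2, 0.95 (SE 0.37, adjusted p = 0.152) for U6B-5 and 0.86 (SE 0.31, adjusted p = 0.115) for SNORD3@. None passed, although U6-snRNA-1 did under 9 of 18 other settings. LS7 minus SH7 was −1.25 (adjusted p = 0.02), −1.69 (adjusted p = 0.00348), −1.75 (adjusted p = 0.00248) and −1.30 (adjusted p = 0.00471) for the same 4, all called. In this comparison 58.4% of the names were called as lower, with a median of −1.11 over all names. Relative to that median the 4 differed by −0.14, −0.58, −0.64 and −0.19. With scaling to the names detected on all arrays the differences were instead 0.58, 0.03, 0.25 and 0.70, none called. As a ratio to the red channel U6-snRNA-1 was called as higher (0.57).

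Counted as lists with the normalisation used here, the other names since traced to tRNA, rRNA, snRNA, snoRNA or vault RNA came to 9 of 12 sought on the array, of which 6 were detected and tested. In LS7 against SH7, 0 of the 6 were higher and 3 were lower, with a median of −1.51, beside 36 higher and 420 lower of all 719 names with a median of −1.11. Against CT 0 were higher and 4 lower, with a median of −1.59 beside −0.99. On day 1 against CT 0 were called, with a median of −0.16 beside 0.13. The sixth, miR-768-5p, overlaps a C/D box snoRNA and differed by 0.38 (adjusted p = 0.291) between LS7 and SH7. It was called as higher when scaled to the 75th percentile of all names (0.69) or of the names detected on all arrays (2.35). Reference probes for U6, 5S rRNA and snoRNAs came to 26 names, of which 13 were detected and 11 tested. In LS7 against SH7, 0 of the 11 were higher and 6 lower, with a median of −1.04, the sixth of these being SNORD48-5 (−1.01, adjusted p = 0.0132). Against CT 1 was higher, SNORD6 (0.93, adjusted p = 0.049), and 5 were lower, and on day 1 against CT 0 were called, with a median of 0.75 beside 0.13.

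**Figure D4:**
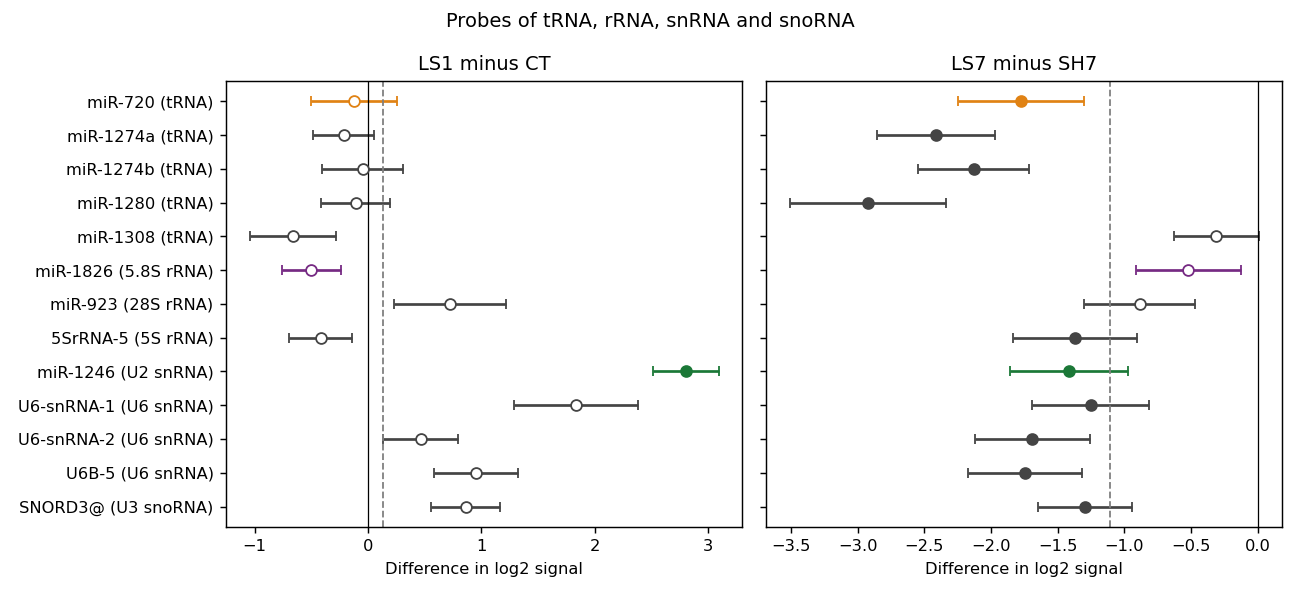
Difference in log2 signal of LS1 from CT (left) and of LS7 from SH7 (right) for the 3 probes and 10 other probes of tRNA, rRNA, snRNA and snoRNA. Points are limma estimates with their SE from 5 animals a group, filled points have an adjusted p below 0.05, and the dashed line is the median of all 719 names tested (0.13 and −1.11). Only miR-1246 is called on day 1, and miR-1280 is lowest on day 7.

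The detected names whose values ran most like each probe over the 35 arrays were listed by Pearson r, as a description over arrays that share their normalisation. For miR-1246 they were hsa-miRPlus-F1029 (r = 0.94), mmu-miR-882 (0.92), hsa-miR-185* (0.91), hsa-miR-498 (0.91) and hsa-miRPlus-A1056 (0.89). None of these 5 names includes a rat microRNA. All 5 were called as higher in LS1 than in CT, by 1.23 to 1.75, where 7.51% of the names tested were. They were picked by their likeness to miR-1246 on these same arrays, so their calls are no separate evidence. For miR-720 they were hsa-miRPlus-E1024 (0.86), mmu-miR-667 (0.86), miR-29a (0.85), 5SrRNA-5 (0.85) and hsa-miR-1285 (0.84). For miR-1826 they were hsa-miRPlus-E1103 (0.85), hsa-miRPlus-E1253 (0.83), miR-152 (0.82), miR-23a (0.81) and miR-22 (0.79). The 3 probes themselves correlated with each other by 0.37 (miR-1246 and miR-720), −0.01 (miR-1246 and miR-1826) and 0.59 (miR-1826 and miR-720). With the median of all names on the array the correlation was 0.76 for miR-1246, 0.46 for miR-720 and 0.23 for miR-1826.

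No source used here says what the red channel of the arrays holds, and the 3 probes were tested in it alone. Of 45 comparisons 0 were called by limma and 0 had an unadjusted p below 0.05, with differences of −0.73 to 1.04. The red values were normalised by normexp and quantiles. This gave miR-1826 the same value, 14.95, on every CT and SH7 array. Its red signal over background ran from 10063 to 65443 over all arrays. The red comparisons of miR-1826 could thus hardly differ and do not show that its red levels were alike.

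**Figure D5:**
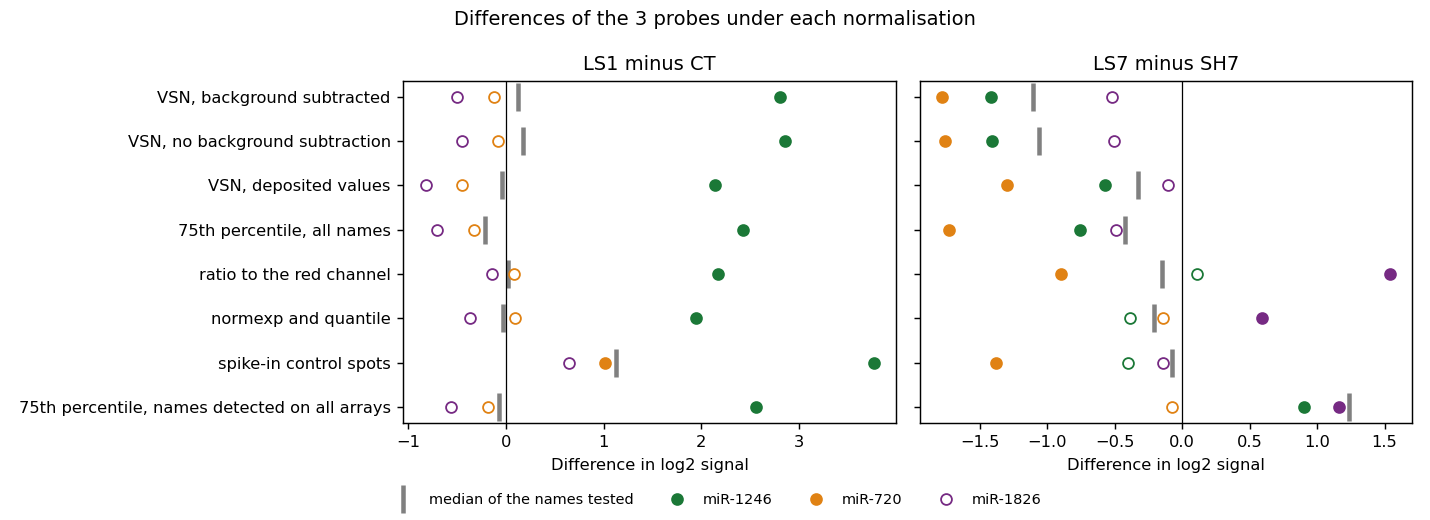
Difference in log2 signal of LS1 from CT (left) and of LS7 from SH7 (right) for the 3 probes under 8 normalisations. Filled points have an adjusted p below 0.05 and grey ticks are the median of the names tested. The difference of miR-1246 on day 1 is called under all 8 (1.95 to 3.76), while on day 7 the grey tick moves between −1.11 and 1.23 and none of the 3 probes is called under all 8.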

How the data were processed

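RNA of 35 animals was measured on 1 array each. The scanner files hold intensity values as deposited, foreground and local background medians of 9360 spots at 532 nm (green) and 635 nm (red), read by the authors with GenePix Pro without normalization. A quality score per spot, per the file headers, marks bad spots by −100. The deposited table holds log2 values made by the authors by VSN. On 33 arrays it kept the order of the scanner values.

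Green background was subtracted, bad spots were left out, VSN was fitted over 35 arrays on 7063 spots of 1766 names (share kept 0.9) and the 4 spots of each name were summarised by their median. Names with over 0.5 of their spots above the mean plus 2 SD of 28 negative control spots in 3 or more animals of any group, and an interquartile range above 0.5, were tested. Precision is limited by the 5 arrays of each group and by their signal. In 15 pairs, 10 arrays each, groups were compared by limma 3.58.1 (R 4.3.3) with Benjamini-Hochberg adjustment and a limit of 0.05. The study's methods name a paired test, but groups hold different animals, so no pairing was used. Within-array differences were compared by exact permutation tests, adjusted over 45. Python 3.11.15, numpy 2.4.6, pandas 2.3.3, scipy 1.17.1 and matplotlib 3.10.9 served for the rest, and the scripts were tested on simulated data.

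Alternatives were the deposited values, no background subtraction, normexp (offset 50) with quantile normalization, scaling to the 75th percentile or to 5 spike-in controls, the red channel as a ratio, other filters, array weights, scan day (13 days, at most 4 arrays a day) or replicate number as a block, and omission of each animal. For other values the 719 names tested were kept. The probes, the lists, the markers and the rule for names (the 3 probes, detected list members, and the 5 names most alike) were chosen with earlier results of these data known. Probe sequences were not used here.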

Additional observations from a re-analysis of the deposited data

Results flagged for a closer look

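LS7 replicate 5 had a miR-720 signal of 9.49, with a gap to the other LS7 animals above Dixon's critical value of 0.71 for 5 samples. It was 1 of 21 groups tested over the 3 probes, and chance alone gives about 1 in 20. The same array had the highest scanner gain (720) and the highest mean of the negative controls (191), and 279 names were detected on it. Of the 21 groups of within-array differences 0 were beyond the value.

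The effect of contusion on miR-1246 differed between days 7 and 1 by −3.37 and that on miR-720 by −1.44, both past the limit of the test of that difference, in which 59% of all names also passed. The call of miR-720 was lost in 8 of 17 alternatives and in 11 of 20 omissions of an animal, and that of miR-1246 in 2 of 17 alternatives and 0 of 20 omissions.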

How the results depend on the processing

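The difference of miR-1246 between LS1 and CT kept its call in all 18 alternatives and all 10 omissions, and the count of 0 calls among sham and unoperated groups was also unchanged in 20 alternatives. LS7 minus SH7 of miR-1280 kept its call in 19 alternatives and 10 omissions. For the values that follow, the call or the direction depended on the setting, and the cause was not tested. Scaled to the 75th percentile of names detected on all arrays, LS7 minus SH7 was 0.90 for miR-1246, −0.073 for miR-720, 1.16 for miR-1826, 0.19 for miR-1274b, 1.38 for miR-1308, 0.86 for miR-923, 0.58 for U6-snRNA-1, 0.026 for U6-snRNA-2, 0.25 for U6B-5, 0.36 for 5SrRNA-5 and 0.70 for SNORD3@. Of these, miR-1246, miR-1826, miR-1308 and miR-923 were called as higher, and the rest were not called. LS7 minus CT was 0.71 for miR-1246, −0.29 for miR-720 and 0.99 for miR-1826, the last called as higher. LS3 minus SH3 was 0.012 for miR-720 and 0.32 for miR-1826, and the change of the miR-720 effect from day 1 to day 7 was 0.34. With all names for the percentile, LS7 minus CT of miR-1246 was −0.64 and not called.

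With normexp and quantile normalization, LS7 minus SH7 was −0.39 for miR-1246, −0.14 for miR-720, 0.59 for miR-1826, 1.29 for miR-1308, 0.86 for miR-923, 0.31 for U6-snRNA-1 and 0.33 for 5SrRNA-5. Of these, miR-1826, miR-1308 and miR-923 were called as higher, and the rest were not called. LS7 minus CT was −0.39 for miR-1246, −0.30 for miR-720 and 0.36 for miR-1826, LS3 minus SH3 0.16 for miR-720 and 0.25 for miR-1826, LS1 minus CT 0.092 for miR-720, and the change of the miR-720 effect 0.13. Within arrays, miR-1246 minus miR-720 changed by −0.24 in LS7 against SH7 and −0.094 against CT, and miR-1826 minus miR-720 by 0.74 in LS7 against SH7 (not called) and −0.27 in LS3 against CT.

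As a ratio to the red channel, LS7 minus SH7 was 0.11 for miR-1246, 1.54 for miR-1826, 0.94 for miR-1308, 0.24 for miR-923, 0.57 for U6-snRNA-1, 0.029 for U6-snRNA-2 and 0.32 for SNORD3@. Of these, miR-1826, miR-1308 and U6-snRNA-1 were called as higher, and the rest were not called. LS7 minus CT was 0.024 for miR-1246, −0.64 for miR-720 (not called) and 1.27 for miR-1826 (called). LS3 minus SH3 was 1.19 for miR-1246 (called), 0.31 for miR-720 and 0.77 for miR-1826 (called). LS3 minus CT was 0.72 for miR-1246 and 0.75 for miR-1826, both called. LS1 minus SH1 was 0.060 for miR-720 and 0.051 for miR-1826, and LS1 minus CT 0.088 for miR-720. Within arrays, miR-1246 minus miR-1826 changed by 1.41 in LS1 against SH1 and −1.43 in LS7 against SH7, both called, and by −0.033 in LS3 against CT, and miR-1826 minus miR-720 by −0.0083 in LS1 against SH1.

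Scaled to the spike-in controls, LS1 minus SH1 was 3.70 for miR-1246, 1.49 for miR-720 and 1.58 for miR-1826, all called. LS1 minus CT was 1.02 for miR-720, called as higher, and 0.64 for miR-1826 and 0.72 for 5SrRNA-5, neither called. LS3 minus CT was −0.049 for miR-720 and −0.043 for miR-1826. LS7 minus SH7 was −0.40 for miR-1246 and 0.073 for miR-1308, and LS7 minus CT −0.10 for miR-1246 and 0.19 for miR-1826. With the deposited values LS7 minus SH7 of miR-1308 was 0.11 and LS7 minus CT of miR-1246 was −0.60, not called. With array weights the difference of miR-1246, LS1 minus SH1, was 2.32 and called, LS3 minus SH3 of miR-1826 was 0.088 and LS1 minus CT of miR-720 was 0.072. Fitted with all 7 groups, LS1 minus SH1 of miR-1246 was 1.96 and called (adjusted p = 0.0433). With no filter on names, LS7 minus CT of miR-1246 was −1.24 and not called.

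With scan day as a block LS1 minus CT was −0.95 for miR-720 and −0.78 for miR-1826, both called from 1 shared day, LS7 minus CT of miR-1246 was −1.05 and not called, and LS7 minus LS1 of miR-720 was 0.28. As a block in 1 fit of all 7 groups, chosen after seeing the data, LS3 minus SH3 of miR-1826 was 0.022, and LS7 minus SH7 (−1.12) and minus CT (−0.91) of miR-1246 were not called. Without SH1 replicate 4 and LS3 replicate 2, also chosen after seeing the data, LS1 minus SH1 of miR-1246 was 2.40 and its changes within arrays 2.96 from miR-720 and 2.76 from miR-1826, all called, and LS3 minus SH3 of miR-1826 was 0.024. Without the 2 arrays whose files differed, miR-1826 minus miR-720 in LS7 against SH7 was 1.12 and not called.

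Same-numbered animals did not deviate together: correlations ran from −0.66 to 0.66, in 0 of 15 pairs of groups were all above 0.1, and in 0 did every sample correlate best with its own number. With the replicate number as a block, the difference of miR-1246, LS7 minus CT, was −1.24 (adjusted p = 0.0511) and lost its call, and no other call given for a difference of a named probe was changed. The count of names called, LS3 minus SH3, was 119 with the block and 37 without it.

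Leaving out 1 animal at a time, LS1 minus SH1 of miR-1246 was 1.69 to 2.40, called only without SH1 replicate 4, and LS7 minus CT was −1.55 to −0.79, called in 3 of 10. The values of miR-720 were −0.32 to 0.19 in LS1 minus CT and −0.10 to 0.38 in LS3 minus CT, and those of miR-1826 −0.38 to 0.024 in LS3 minus SH3 and −0.094 to 0.31 in LS3 minus CT. Within arrays, LS1 against SH1 was 1.81 to 2.76 for miR-1246 minus miR-1826, 1.93 to 2.96 for miR-1246 minus miR-720 and −0.21 to 0.40 for miR-1826 minus miR-720. The last was −0.20 to 0.20 in LS3 against CT and 1.05 to 1.44 in LS7 against SH7, called in 5 of 10. The change of the miR-720 effect between days 1 and 7 was −1.69 to −0.91, called in 9 of 20.

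The names called varied from 0 to 707 in LS1 minus SH1, 0 to 151 in LS3 minus SH3, 145 to 697 in LS7 minus SH7, 24 to 502 in LS1 minus CT, 2 to 157 in LS3 minus CT, 162 to 448 in LS7 minus CT, 5 to 577 in LS3 minus LS1, 1 to 444 in LS7 minus LS3 and 4 to 751 in LS7 minus LS1. miR-1826 had 0 to 6 calls in 15 pairs, and 0 in 14 of 20 alternatives. The dim signal of miR-1246 in LS7, where 3 of 5 animals were detected, limits its values there.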
